A study of Drosophila melanogaster with 2 samples.

Results

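The genes described here are 41 protein-coding DNA replication genes of Drosophila melanogaster, out of 13968 protein-coding genes on the 7 chromosome arms. They were taken by gene symbol from the Ensembl release 115 annotation of the dm6 assembly, under a rule that uses no measured value but was written with earlier results of these data known. They encode the origin recognition complex (Orc1 to Orc6), the factors that load the helicase (Cdc6, dup, geminin), the MCM helicase, Mcm10, the GINS complex, polymerases alpha, delta and epsilon with primase, the clamp PCNA and its loader, replication protein A, Fen1, Top2 and ribonucleotide reductase. Another 5 subunits (Cdc45, DNAlig1, Gnf1, CG8142 and Chrac-14) stand in the annotation under symbols that the choice did not cover, and are given apart.

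MBD-R2 binding was measured by chromatin immunoprecipitation and sequencing (ChIP-seq) in whole embryos of 0 to 24 h that express MBD-R2 fused to eGFP, with an antibody against GFP and sonicated fragments of 200 to 800 bp. The study has 1 group of 2 biological replicates, no second condition, and control libraries that were not analysed here. The deposited values are peak lists: a main list made from both replicates, a conservative list, and for each replicate a ranking of peaks and the part of it that passed a threshold on the irreproducible discovery rate (IDR), a measure of how well the rank of a peak repeats from one list to another. Sequencing depth is unknown here, as is the regulatory sequence that drives the fusion. Whole embryos mix all cell types, so strong binding in few cells and weak binding in many cannot be told apart.

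MBD-R2 is a subunit of the NSL complex, which carries the histone acetyltransferase MOF and is known for binding promoters of broadly expressed genes. DNA replication begins when the origin recognition complex, Cdc6 and dup (Cdt1) place the MCM helicase on DNA, and geminin blocks dup afterwards. The helicase becomes active with Cdc45 and GINS, polymerase alpha with primase starts each strand, and polymerases epsilon and delta extend the strands with PCNA. Promoters of such genes in flies are known for a pair of short elements, the DNA replication-related element (DRE), bound by the factor Dref, and sites for E2F factors, which couple transcription to the cell cycle.

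The following promoter stretches carry the contrasts described later, and each runs 5′ to 3′ on the gene's strand, from 140 bases upstream of the transcription start site (TSS) to 10 bases into the transcript. Capitals mark the DRE letters TATCGATA, the E2F letters (TTTCGCGC, TTTCCCGC, TTTGGCGC or TTTGCCGC on either strand) and the Motif 1 core GGTCACAC, the core of a promoter element that the factor M1BP binds. Sequences are from the RefSeq copy of dm6. The first 4 were chosen by a rule of high signal or a DRE near the summit, and the other 5 after their values were seen. PolD2 had the highest signal of the 41 genes and holds none of these letters (chr3L:1775493-1775642, plus strand). Top2 (chr2L:19453481-19453630, minus strand), Prim2 (chr3L:20361576-20361725, minus strand) and PolA1 (chr3R:21671741-21671890, minus strand) hold a DRE. PolE1 (chr3R:23347988-23348137, plus strand) and RfC4 (chr3L:4136029-4136178, minus strand) hold an E2F site. Mcm3 (chrX:5323715-5323864, plus strand) holds Motif 1 and E2F letters side by side and is among the weaker bound genes. PolE2 (chr3L:5897426-5897575, minus strand) and Mcm7 (chr3L:8891456-8891605, plus strand) were not bound in the main list, PolE2 with motif letters at its TSS and Mcm7 without.
PolD2: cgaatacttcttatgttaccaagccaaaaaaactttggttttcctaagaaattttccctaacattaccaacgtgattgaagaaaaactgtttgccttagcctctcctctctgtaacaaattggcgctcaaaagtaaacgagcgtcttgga
Top2: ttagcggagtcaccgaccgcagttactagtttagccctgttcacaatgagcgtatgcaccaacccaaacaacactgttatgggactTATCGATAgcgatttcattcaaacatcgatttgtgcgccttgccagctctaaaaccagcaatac
Prim2: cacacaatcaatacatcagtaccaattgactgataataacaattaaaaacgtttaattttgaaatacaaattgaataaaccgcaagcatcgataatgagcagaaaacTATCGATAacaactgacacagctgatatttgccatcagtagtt
PolA1: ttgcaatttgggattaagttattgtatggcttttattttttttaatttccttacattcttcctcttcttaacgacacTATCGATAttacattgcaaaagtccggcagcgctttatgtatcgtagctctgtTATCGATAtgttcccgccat
PolE1: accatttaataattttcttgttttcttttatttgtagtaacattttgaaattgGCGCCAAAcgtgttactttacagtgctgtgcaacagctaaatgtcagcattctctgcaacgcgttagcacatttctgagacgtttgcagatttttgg
RfC4: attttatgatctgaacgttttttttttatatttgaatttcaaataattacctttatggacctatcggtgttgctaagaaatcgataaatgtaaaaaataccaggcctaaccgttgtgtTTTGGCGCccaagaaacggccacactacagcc
Mcm3: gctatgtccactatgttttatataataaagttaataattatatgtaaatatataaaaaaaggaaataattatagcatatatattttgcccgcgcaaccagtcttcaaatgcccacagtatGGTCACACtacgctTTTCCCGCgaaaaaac
PolE2: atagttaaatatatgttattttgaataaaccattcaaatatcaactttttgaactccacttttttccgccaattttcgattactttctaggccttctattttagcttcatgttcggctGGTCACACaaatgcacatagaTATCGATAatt
Mcm7: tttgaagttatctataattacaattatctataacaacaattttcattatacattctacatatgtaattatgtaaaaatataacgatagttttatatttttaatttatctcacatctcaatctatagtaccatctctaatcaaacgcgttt

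A gene was called bound when the summit of a peak fell at most 500 bp from one of its TSSs. Of the 41 replication genes 38 (92.7%) were bound in the main list, beside 44.0% of all protein-coding genes. In the conservative list 36 (87.8%) were bound, beside 39.7% of all genes. The list of replicate 1 held 33 (80.5%), beside 33.2% of all genes, and that of replicate 2 held 37 (90.2%), beside 43.5%. Both replicates' own lists held 31 genes (75.6%), beside 32.3% of all genes. The rankings that reach below the IDR threshold held a peak in both replicates for 39 of the 41 genes (95.1%), beside 57.1% of all genes. The share of bound genes was thus higher than among all genes in each of these counts, and with 1 group of 2 replicates no test was made of it. Of the 5 subunits under other symbols all were bound, with signals of 476 (Chrac-14, a subunit of polymerase epsilon), 288 (CG8142, a clamp loader subunit), 208 (DNAlig1, the ligase of the lagging strand), 197 (Cdc45) and 146 (Gnf1, the large clamp loader subunit). Counting them, 43 of 46 genes were bound. At 3 of these 5 subunits (60.0%) the summit was nearer to another gene's TSS, beside 24.8% of all bound genes. The nearer genes were D12 (Chrac-14), Ucp4A (CG8142) and DCP1 (DNAlig1).

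**Figure D1:**
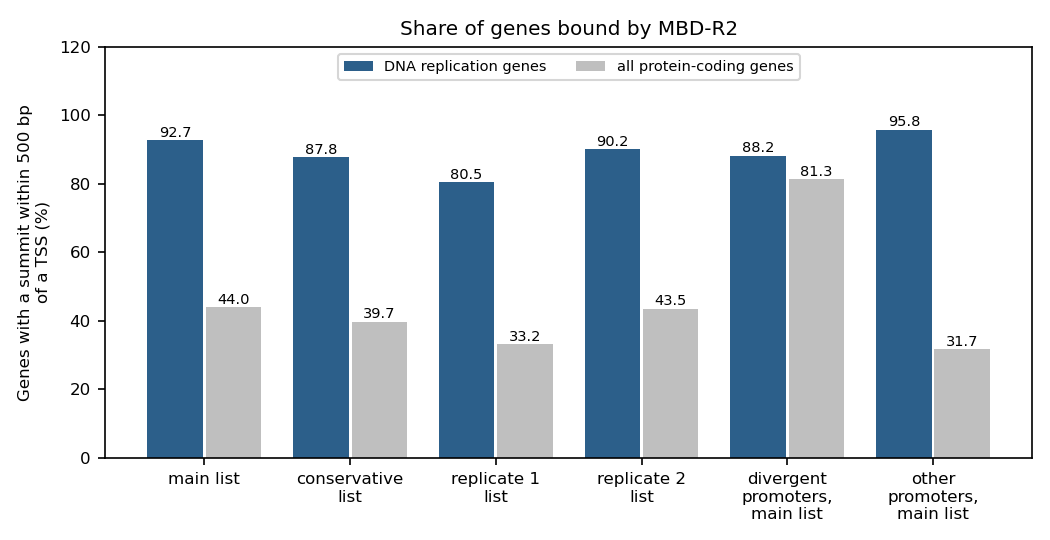
Share of genes with a peak summit within 500 bp of a TSS (percent, vertical axis) for the DNA replication genes (blue, left bar of each pair) and all protein-coding genes (grey), in 4 peak lists and, for the main list, at divergent and other promoters. The replication genes lie at 80.5% to 95.8%, and the pair of bars is closest at divergent promoters (88.2% and 81.3%).

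The strength of a bound promoter was taken as the signal value of its strongest peak, in the units of the authors' peak caller. In the main list this value was close to the sum of both replicates' values, with a median ratio to that sum of 0.987 over 37 replication genes and 0.999 over 6011 bound genes. The bound replication genes had a median signal of 184 (quartiles 112 and 247), beside 170.3 (113 and 259.7) over all 6151 bound genes. Their range, 30.6 to 477, lay inside the range of 7.34 to 1790.2 of all bound genes. Of the 38 genes 23 lay above the all-gene median and 15 below, 8 in the strongest 25% of all bound genes and 10 in the weakest 25%. In the conservative list their median was 191 against 184 over all bound genes, in the list of replicate 1 82.7 against 79.0, and in that of replicate 2 117 against 107. Being bound was therefore common among these genes, while the quartiles of signal at those bound lay near those of all bound genes, with no replication gene near the highest values.

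**Figure D2:**
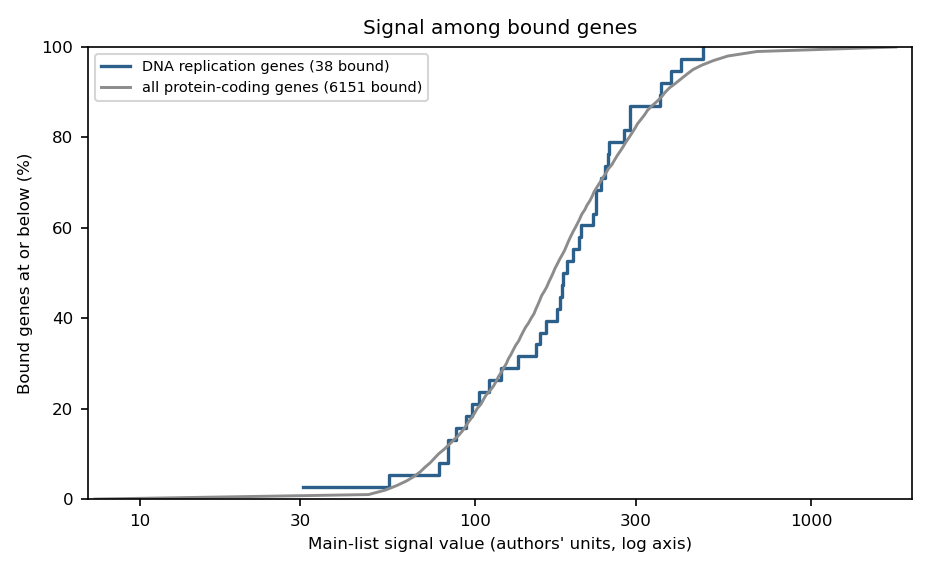
Cumulative percent of bound genes (vertical axis) at or below each main-list signal value (horizontal log axis, authors' units), for the 38 bound DNA replication genes (blue) and all 6151 bound protein-coding genes (grey). The curves cross, with quartiles of 112, 184 and 247 for the replication genes and 113, 170.3 and 259.7 for all bound genes.

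The origin recognition complex, which marks where replication can start, was bound at all 6 of its genes in the main, the conservative and both replicates' lists. Orc4 had a signal of 383 in the main list, with 150.5 in replicate 1 and 225 in replicate 2. Orc5 had 289 in the main list, with 114 and 169 in replicates 1 and 2. Orc1, whose product binds ATP in the complex, had 250.2 with its summit 1 bp from the TSS, and 111 and 136 in the replicates. These 3 were the strongest of the complex in each replicate except that Orc3 passed Orc1 in replicate 2. Orc3 had 229 in the main list, and 82.7 and 149 in the replicates. That main-list summit lay 17 bp from the TSS of FLASH and 215 bp upstream of Orc3. A summit at a separate Orc3 TSS had 74.5. Orc6 had 134, and 38.9 and 96.6 in the replicates. By the strongest summit of each gene, Orc2 was the weakest in the main list, at 82.6, with 47.7 and 42.1 in the replicates. Its summit lay 10 bp from its TSS. Genes for subunits of 1 complex therefore differed 4.64-fold in signal, and the order within the complex was not the same in both replicates.

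All 3 genes that control helicase loading lay above the median of all bound genes in the main list. Geminin, the inhibitor of loading, had 357 in the main list, with 133 in replicate 1 and 222 in replicate 2. The gene dup, which encodes the Cdt1 loading factor that geminin blocks, had 277, with 96.6 and 171 in the replicates. Cdc6, the loading ATPase, had 224, with 52.1 and 172 in the replicates. Its value in replicate 1 lay below the median of 79.0 over all genes bound in that replicate's list. The replicates thus gave different orders here, since Cdc6 was the lowest of the 3 in replicate 1 and close to dup in replicate 2.

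Of the 6 MCM genes, which encode the ring-shaped helicase, 5 were bound, with a median of 178. The gene dpa (Mcm4) had 354 in the main list, and 138 and 214 in the replicates. Mcm2 had 204 (102 and 118), and Mcm5 had 178 (75.2 and 93.3). The main-list value of Mcm5, which is also the median, came from a summit 70 bp from the TSS of Art1. A summit 26 bp upstream of Mcm5 had 55.6. Mcm6 had 102 (59.8 and 57.5). Mcm3 had 77.8, with 33.3 in the list of replicate 1 and 38.7 in the ranking of replicate 2, where its IDR of 0.015 kept it out of the thresholded list. The MCM genes spanned from a signal above 88.5% of all bound genes (dpa) to no peak in the main list (Mcm7). Mcm10, a separate factor that activates the helicase and is no member of the ring, had the lowest signal of all 38 bound genes, 30.6. Its main-list summit lay 380 bp upstream, 130 bp from the TSS of bur, while the peaks in both replicates lay 114 and 112 bp upstream of Mcm10 with 27.7 and 30.7. Replicate 2 gave its peak an IDR of 0.587, so Mcm10 was in the list of replicate 1 and not in that of replicate 2. The conservative list did not hold Mcm10 either.

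The 4 GINS genes, whose products hold Cdc45 to the helicase, were bound in the main list with signals of 152 to 243. Sld5 was the highest at 243, with 118 in replicate 1 and 135 in replicate 2. Psf2 had 181 (60.5 and 116). Psf1 had 155, with a peak of 117 in replicate 2 and a ranked peak of 43.2 in replicate 1 whose IDR was 0.753. Psf3 had 152 (63.7 and 99.0). In replicate 2 all 4 were called, and in replicate 1 all but Psf1.

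Polymerase alpha with primase, which lays down the primers, was bound at all 4 genes in every list. PolA2 had 411, with 156 in replicate 1 and 251 in replicate 2. Prim2 had 248 (97.5 and 154), and PolA1, the catalytic subunit, had 182 (89.7 and 93.3). Prim1, the catalytic subunit of primase, had 163 (43.3 and 127). The accessory subunit PolA2 was thus ahead of the catalytic subunit in both replicates. The main-list summit of PolA2, however, lay 16 bp from the TSS of CG31064 and 94 bp upstream of its own. The polymerase delta genes showed the widest spread of any polymerase. PolD2 had 477 in the main list, but 111 in replicate 1 and 377 in replicate 2. PolD3 had 195 (80.6 and 96.7), and PolD1, the catalytic subunit, had 82.8 (53.0 and 40.0). PolD2, the strongest in the main list, ranked 237 among the 6151 bound genes, and its 3.40-fold difference between replicates was the greatest among the bound replication genes. In replicate 1 PolD2 lay below PolA2, Orc4, dpa, geminin, Top2, Sld5 and Orc5. Polymerase epsilon was bound at PolE4 (207, with 80.9 and 126 in the replicates) and at the catalytic subunit PolE1 (175, with 62.6 and 106), and not at PolE2.

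The clamp PCNA, which tethers polymerases to DNA, had 237, with 94.7 in replicate 1 and 147 in replicate 2. Of the clamp loader genes, RfC38 had 187 (93.7 and 112), RfC3 had 119 (32.5 and 85.3), and RfC4 had 109.5 (33.6 and 78.8). RfC3 and RfC4 were called in replicate 2, and in replicate 1 they had only ranked peaks with IDRs of 0.255 and 0.245. Replication protein A, which coats single-stranded DNA, was weak at its bound genes, with 97.8 at RPA2 (40.3 and 57.1) and 87.3 at RPA1 (62.4 and 56.5). Fen1, the nuclease that trims flaps on the lagging strand, had 55.3 in the main list and 48.4 in replicate 2, and no ranked peak in replicate 1. Top2, which untangles the copied DNA, had 289 (133 and 165). Ribonucleotide reductase, which makes deoxyribonucleotides, had 228 at the small subunit RnrS (84.9 and 155) and 93.9 at the large subunit RnrL (51.9 and 45.1). The 2 subunits of ribonucleotide reductase thus lay on opposite sides of the median of all bound genes.

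**Figure D3:**
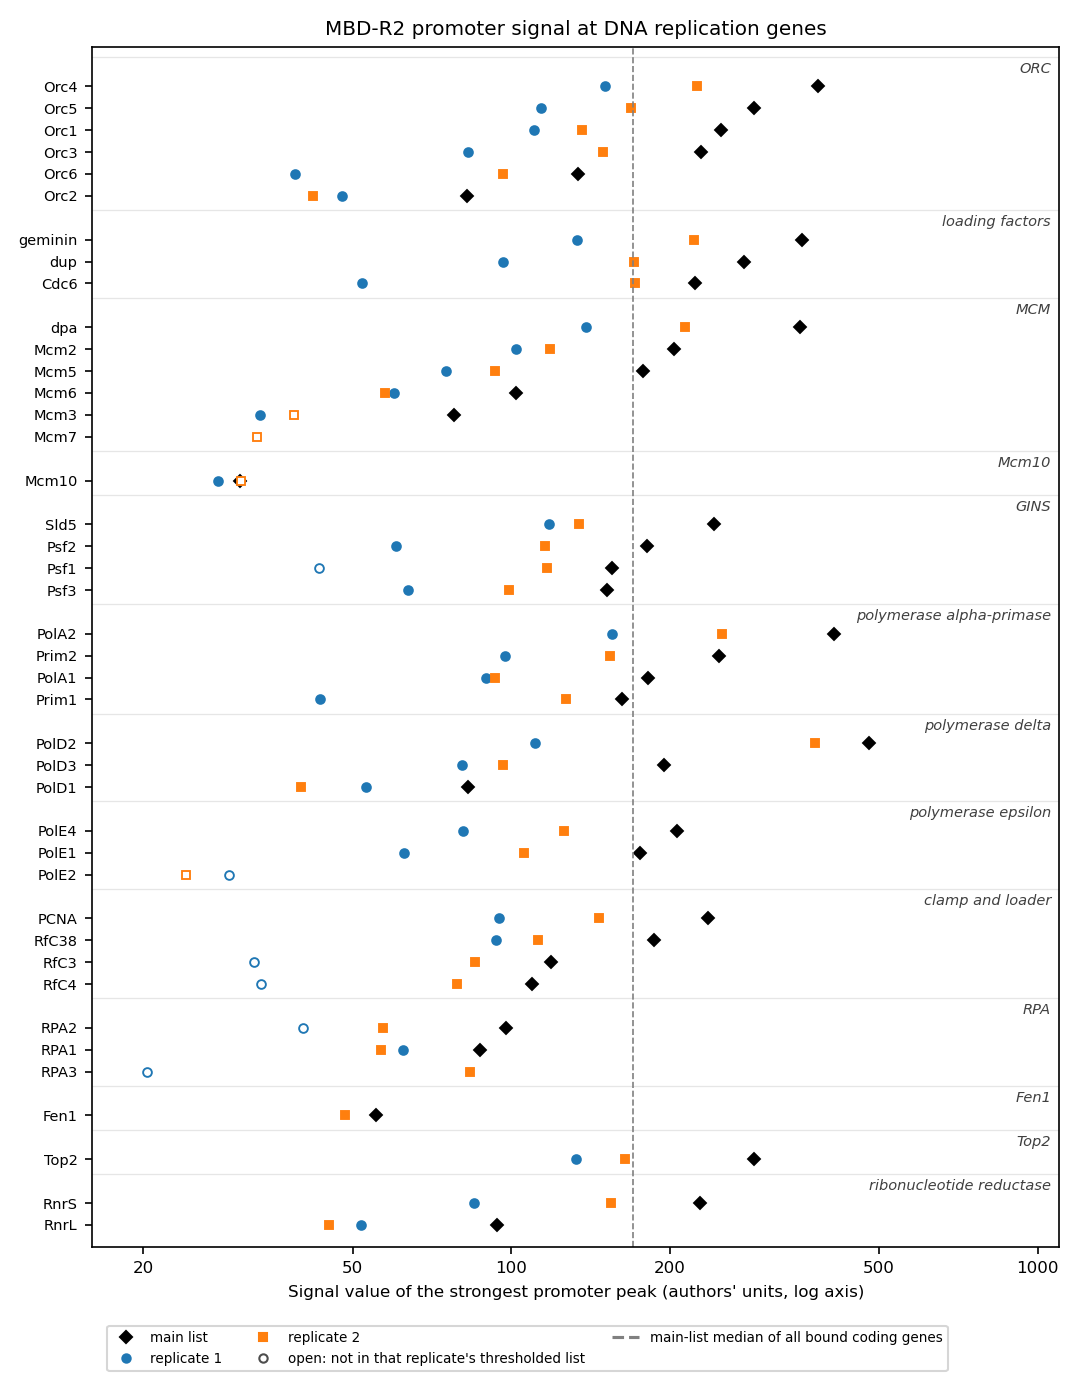
Signal of the strongest peak within 500 bp of a TSS (horizontal log axis, authors' units) for each of the 41 DNA replication genes, by complex, in the main list (black diamonds), replicate 1 (blue circles) and replicate 2 (orange squares), with open symbols for peaks that are only in a replicate's ranking. The dashed line is the median of all bound genes, 170.3, and Mcm7, PolE2 and RPA3 have no black symbol.

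The 3 genes with no summit in the main list differed in what the rankings held. RPA3, the small subunit of replication protein A, was in the list of replicate 2 at 83.4 with an IDR of 0.00166 and a summit 86 bp downstream of its TSS. In replicate 1 its strongest ranked peak was 20.4, 445 bp upstream, with an IDR of 0.659. The series has 2 rankings, of which the longer holds the whole main list. In the longer one its peak had a signal of 97.1, close to that of RPA2, and an IDR of 0.0245, and in the shorter one the IDR was 0.214. PolE2, an accessory subunit of polymerase epsilon, had ranked peaks of 29.1 and 24.1 in replicates 1 and 2, with IDRs of 0.595 and 0.0955. Its peak in the series rankings had 58.0, 18 bp from its TSS, with an IDR of 0.0716 in the longer and 0.0439 in the shorter. Mcm7, a subunit of the helicase, had a ranked peak of 32.9 with an IDR of 0.402 in replicate 2, none in replicate 1, and in the longer series ranking a peak of 34.6 with an IDR of 0.748, 27 bp from its TSS. The nearest main-list summit lay 29350 bp from the TSS of Mcm7, 3888 bp from that of RPA3 and 2103 bp from that of PolE2. An IDR of up to 0.05 in the longer ranking added RPA3 and gave 39 bound genes (beside 47.9% of all genes), while in the shorter ranking PolE2 and not RPA3 lay under 0.05. All 3 thus had a ranked peak within 100 bp of the TSS in the series rankings, and Mcm7 had the highest IDR of the 3.

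Signals in replicate 2 were mostly higher than in replicate 1, and whether the values are scaled for depth is not known. Over the 37 bound replication genes with a ranked peak in both, the ratio of replicate 2 to replicate 1 had a median of 1.55 (quartiles 1.16 and 1.81), beside 1.63 (1.32 and 2.03) over 6011 bound genes. The ratio was lowest at PolD1 (0.753) and highest at PolD2 (3.40), both genes of polymerase delta. Replicate 2 was lower than replicate 1 at 5 replication genes (13.5%), beside 5.79% of all bound genes. These were Mcm6, Orc2, PolD1, RPA1 and RnrL, and all 5 were in the weakest 25% of bound genes. In that part replicate 2 was lower at 5 of 9 replication genes (55.6%), beside 10.2% of 1415 bound genes, and outside it at 0 of 28 replication genes, beside 4.42% of 4596 bound genes. The split by strength was made after the values were seen. The replicates' strongest called peaks overlapped by at least 1 bp at 30 of the 31 replication genes called in both lists (96.8%), beside 96.6% of 4505 genes.

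Summits at the replication genes were close to the TSS. The strongest summit lay at a median of 28 bp upstream (quartiles 102 bp upstream and 23.8 bp downstream), and within 100 bp of the TSS at 26 genes (68.4%), beside 62.2% of all bound genes. It lay upstream at 26 genes (68.4%), beside 63.5%. The annotation places 23 summits upstream of the gene, 12 in the 5′ UTR and 3 in an intron (Prim1, PolD1 and Psf2). The farthest were at Mcm10, 380 bp upstream, and Prim1, 314 bp downstream. The peak covered the gene's own TSS at 31 genes (81.6%), beside 75.7% of all bound genes. Within gene bodies over 500 bp from a TSS there was 1 summit, in an intron of Top2 628 bp downstream of the TSS with a signal of 149 (2.44% of the 41 genes, beside 6.43% of all genes). A bound gene has a summit within 500 bp of a TSS by definition, so binding at the promoter is not a result here. Within that window the positions were much like those of all bound genes.

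Many replication genes share their promoter region with another gene. A protein-coding gene on the opposite strand began within 500 bp upstream at 17 of the 41 genes (41.5%), beside 24.9% of all genes. The shortest gap was 2 bp, between dpa and didum. At these divergent promoters 15 of 17 replication genes were bound (88.2%), beside 81.3% of 3483 such genes in all. At the other promoters 23 of 24 were bound (95.8%), beside 31.7% of 10485 genes. The gap between the replication genes and all genes was thus wider where no divergent partner was present. Median signal was 195 at divergent and 181 at other promoters of the replication genes, against 201 and 149 over all bound genes. The TSS of another gene was nearer to the summit than the gene's own at 11 replication genes (28.9%), beside 24.8% of all bound genes. These summits were nearer to bur (Mcm10), Art1 (Mcm5), FLASH (Orc3), CG31064 (PolA2), lncRNA:CR45446 (PolD1), qkr58E-3 (PolE4), CG7083 (Prim1), Sac1 (Psf1), CG4751 (RfC38), CG14543 (Sld5) and SRPK (dup). With only those summits counted that had no nearer TSS of another gene, 29 of the 41 genes stayed bound, beside 35.4% of all genes.

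Some shared promoters carried a separate summit for each gene. A second summit within 500 bp of a TSS was present at 7 bound replication genes (18.4%), beside 21.6% of all bound genes. At PolD3 a summit of 195 lay 27 bp upstream of its TSS, and one of 137 lay 12 bp from the TSS of Uxt. At Mcm5 the summit of 178 lay 70 bp from the TSS of Art1 and one of 55.6 lay 26 bp upstream of Mcm5. The signal given for Mcm5 is therefore that of a peak nearer to the neighbour, and the peak at its own start was weaker. Orc3 differed, with 1 summit (229) at the promoter shared with FLASH, 17 bp from the TSS of FLASH, and a summit of 74.5 at a separate Orc3 TSS inside the gene. Mcm2 and RPA1, both replication genes, begin 519 bp apart on opposite strands of arm 3R, with separate peaks of 204 at Mcm2 and 87.3 at RPA1. The replicates ordered this pair the same way, with 102 and 62.4 in replicate 1 and 118 and 56.5 in replicate 2.

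The 41 genes lie on arms 2L (9), 2R (11), 3L (9), 3R (8) and X (4). On the X chromosome 3 of 4 were bound, with a median signal of 102, namely Psf3, Mcm6 and Mcm3, and RPA3 was not. On the autosomes 35 of 37 were bound, with a median of 195. Over all protein-coding genes 1041 of 2196 were bound on X with a median of 139, and 5085 of 11669 on the large autosomal arms with a median of 178. The X-linked replication genes were too few to compare further, and all 3 that were bound lay below the median of all bound genes.

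Promoter sequence was searched on both strands in a window of 250 bp before and 50 bp after the 5′-most TSS. The DRE letters TATCGATA were in 14 of 41 replication promoters (34.1%), beside 9.36% of all promoters, 18.6% of promoters bound at that TSS and 2.68% of those not bound. They were in Orc2, Orc3, Orc5, PCNA, PolA1, PolA2, PolD3, PolE2, PolE4, Prim2, Psf1, Psf3, Sld5 and Top2. PolA1 and PCNA are among the genes in which this element was described in flies, and PolA1 had 3 copies in the window. None of the 6 MCM genes held these 8 letters, though Mcm5 held the 7 letters TATCGAT on the opposite strand. E2F letters were in 18 replication promoters (43.9%), beside 6.41% of all promoters, 7.70% of bound and 5.48% of not bound promoters. They were in 5 of 6 origin recognition genes (all but Orc2), in 4 of 6 MCM genes (Mcm2, Mcm3, Mcm5 and Mcm6), in both ribonucleotide reductase genes, and in PolD3, PolE1, PolE2, Prim2, Psf1, RfC4 and Sld5. Both kinds of letters were in 7 promoters (17.1%), beside 0.587% of all promoters: Orc3, Orc5, PolD3, PolE2, Prim2, Psf1 and Sld5.

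**Figure D4:**
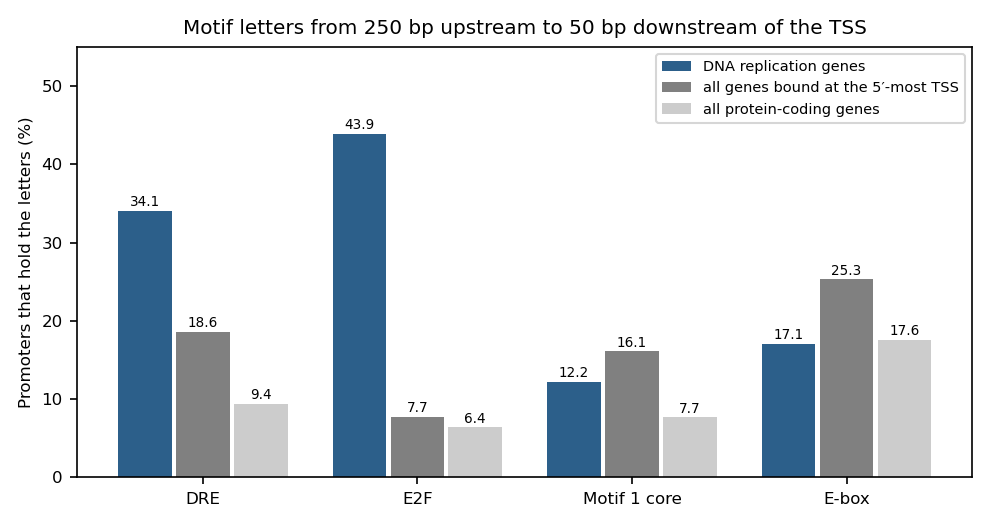
Percent of promoters (vertical axis) that hold each motif's letters in a window of 250 bp before and 50 bp after the 5′-most TSS, for the 41 DNA replication genes (blue), all genes bound at that TSS (dark grey) and all protein-coding genes (light grey). The replication genes stand highest for DRE (34.1%) and E2F (43.9%), and below the bound genes for the Motif 1 core (12.2% and 16.1%) and the E-box (17.1% and 25.3%).

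The Motif 1 core GGTCACAC was in 5 replication promoters (12.2%), beside 7.69% of all and 16.1% of bound promoters: Mcm10, Mcm3, Orc5, PolE2 and RfC38. The E-box CAGCTG was in 7 (17.1%), beside 17.6% of all and 25.3% of bound promoters. Within 150 bp of the strongest summit the DRE was at 11 of 38 bound replication genes (28.9%), beside 16.6% of all bound genes. E2F letters were at 18 of 38 (47.4%), beside 7.93%. The Motif 1 core was at 3 of 38 (7.89%), beside 15.0%, and the E-box at 9 of 38 (23.7%), beside 29.4%. The difference from all bound genes was thus wider for E2F letters than for DRE letters, as a description of these counts.

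The position of the letters differed between the 2 elements. Of 17 DRE copies in the replication promoters 1 began at or after the TSS (5.88%, in Orc2), beside 10.9% of 1451 copies in all promoters. Of 21 E2F copies 13 began at or after the TSS (61.9%), beside 14.7% of 962 copies in all promoters. The downstream E2F copies were in Mcm2, Mcm5, Mcm6, Orc1, Orc4, Orc5, Orc6, PolD3, PolE2, Prim2, RnrL and Sld5, with a pair in RnrL. Where the motif letters read the same on both strands in part, as at Orc3, overlapping matches on opposite strands were counted as separate copies. In Mcm2, Mcm6, Orc1 and RnrL the middle of an E2F copy lay within 31 bp of the strongest summit. In Orc2, Orc5, PCNA, PolA1, Psf3 and Sld5 that of a DRE copy lay within the same distance. In Top2 and Prim2, printed above, the DRE lay 55 bp downstream and 98 bp upstream of the summit. In PolE1 the E2F letters lay 87 bp upstream of the summit and in RfC4 46 bp upstream.

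**Figure D5:**
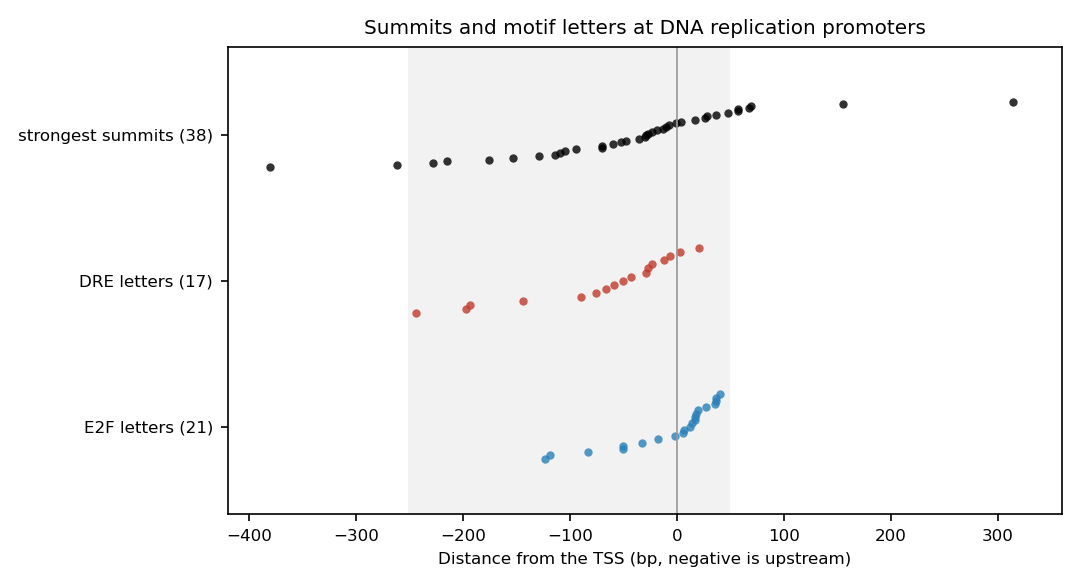
Distance from the TSS (bp, horizontal axis, upstream negative) of the 38 strongest summits of bound DNA replication genes (black). Also shown are the middles of 17 DRE copies (red) and 21 E2F copies (blue) in the promoters of all 41 genes, bound or not. The grey band is the searched window, points are spread vertically in sorted order for sight only, and 13 of 21 E2F copies begin at or after the TSS against 1 of 17 DRE copies.

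Nearly all replication genes were bound both with these letters and without them. With only 3 of the 41 genes not bound in the main list, these shares had little room to differ. With a DRE 13 of 14 were bound (92.9%) and without it 25 of 27 (92.6%). Over all genes 84.2% of 1307 DRE promoters and 39.9% of the others were bound. With E2F letters 17 of 18 replication genes were bound (94.4%) and without them 21 of 23 (91.3%), and over all genes 52.9% of 896 E2F promoters and 43.4% of the others. Of the 16 replication promoters with neither DRE nor E2F letters 14 were bound (87.5%), beside 39.2% of 11847 such promoters in all. Their median signal was 172, beside 168 over all bound genes of that kind. They ran from Mcm10 (30.6) and Fen1 (55.3) to dpa (354), geminin (357) and PolD2 (477). Median signal was 229 at replication genes with a DRE and 175 at those without, against 174 and 169 over all bound genes. PolE2, with DRE, E2F and Motif 1 letters within 50 bp of its TSS, was not bound in the main list. Mcm7 and RPA3 held none of the 4 motifs in full, though RPA3 held the 7 letters TATCGAT of the DRE.

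Of 35 further genes of replication control, chromatin assembly and nucleotide supply 34 were bound (97.1%), beside 44.0% of all genes, with a median signal of 217.5. The genes mei-217 and mei-218 share 1 of these peaks. Besides the classes named, the set holds Top1, Top3alpha, Top3beta, rnh1, Dna2, rec, mei-217 and mei-218, among others. The strongest were Dp at 512 (184 in replicate 1 and 330.0 in replicate 2), Cdk2 at 473 (239 and 241), Top3beta at 463 (172 and 282), Caf1-105 at 422 (158 and 266) and rnh1 at 402 (158 and 256). Dp is the partner of E2F factors on DNA, Cdk2 is the kinase that drives S phase, Top3beta is a topoisomerase, Caf1-105 is a chromatin assembly subunit and rnh1 is a nuclease for RNA paired with DNA. Dref, the factor that binds the DRE, had 169.8 (48.4 and 128), E2f1, the activating E2F, had 131 (33.7, from the ranking, and 89.2), and E2f2, the repressing E2F, had 223 (95.2 and 142). The gene not bound in the main list was Rbf, the retinoblastoma-family repressor of E2F, which had a peak of 85.0 in the conservative list and ranked peaks of 26.7 in replicate 1 and 55.8 in replicate 2. The weakest bound gene was dap, an inhibitor of Cdk2, at 50.1. Another gene's TSS was nearer to the summit at 8 of the 34 bound genes (23.5%), beside 24.8% of all bound genes. Among them was rnh1, with its summit 19 bp from the TSS of drosha and 30 bp from its own. Quartiles of signal in this further set were 148 and 314, beside 113 and 259.7 over all bound genes, and 14 of its 34 bound genes were in the strongest 25% of all bound genes.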

How the data were processed

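All values come from peak lists on dm6, deposited by the authors. Signal values stand as the authors deposited them. The aligner and peak caller (not given in the sources used here) cannot be named, and the scaling of the signal and the depth are unknown. Scores deposited by the authors are, by their values, a rescaled IDR, and were only used to describe peaks. In the rankings the authors also deposited −log10 values of the IDR. The 2 biological replicates were grouped from the labels, and without depths no interval is given. Genes came from Ensembl release 115, after checking that peaks lie within the chromosome lengths, and sequence from the RefSeq genome. A gene was bound when a main-list summit lay within 500 bp of any TSS. Summits, motif letters and neighbours were counted with Python 3.11.15 and NumPy 2.4.6, and the counting was tested on simulated data. With 1 group no test was made. Members and lists were chosen with earlier results of these data known. All members are named, with the nearest other gene at their summits and the unbound and 5 strongest further replication genes. Of the further list, Ctf18 was matched as cutlet, Pol32 was left out as the member PolD3, and tipin matched no gene. The alternatives were other lists, IDR thresholds, windows and motif letters.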

Additional observations from a re-analysis of the deposited data

How the results depend on the processing

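No paired analysis was possible because the study has 1 group. Over the 11 alternatives planned for the count of bound replication genes it ranged from 28 (stronger 50% of peaks, beside 32.0% of all genes) to 39, each within 1.5 times of 38. Median signal was 82.7 to 117 when each replicate was left out in turn, since the main-list signal is near the sum of both replicates, and 226 with the stronger 50% of peaks, since the weaker ones are dropped. The count without X-linked genes (35 of 37) and that with 5 added subunits (43 of 46) were chosen after the data were seen. At an overlap of at least 50% of both peaks 20 of 31 genes shared a peak between replicates (64.5%, beside 72.4% of all genes called in both), against 30 at 1 bp. DRE counts were 11 to 19 over the alternatives. The lowest was 11 of 38 bound genes within 150 bp of the summit (28.9%, beside 16.6% of all bound genes). The highest was 19 of 41 for the 7 letters TATCGAT (46.3%, beside 18.2% of all and 33.6% of bound promoters). The genes added by the shorter letters were Cdc6, Mcm5, RPA3, RfC3 and RfC4. Depth is unknown, so a missing peak is a call under the threshold, not absence of binding.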
